A study of Mus musculus with 30 samples.

Results

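The mouse mitochondrial genome carries 37 genes, and all of them were members here: every gene that the count tables place on chrM, 37 of the 53715 genes of each table. They comprise 13 protein-coding genes, 2 ribosomal RNA genes (mt-Rnr1 and mt-Rnr2) and 22 tRNA genes. The chrM label alone set which genes were members, although the set was chosen with earlier results of these data known. In these libraries 19 of the 37 had a count of 0 throughout, and 11 passed the filter on low counts in the tests below: 7 protein-coding genes, both ribosomal RNA genes and the tRNA genes mt-Tc and mt-Tp.

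The study deleted Myocd, which encodes myocardin, a coactivator of SRF that switches on contractile genes of smooth muscle, in the mesenchyme of the developing mouse airway, and sequenced polyadenylated RNA of single lungs and tracheas. Mutants carried Tbx4rtTAi/+, tetOcrei/+ and MyocdF/F, in which a reverse tetracycline transactivator at Tbx4 drives a tetracycline-dependent Cre. Controls carried Tbx4rtTAi/+, tetOcrei/+ and MyocdF/+, so they too hold the transgenes and 1 floxed allele, except for control replicate 1 at E13.5, whose genotype was MyocdF/F alone. At E13.5 the lung was taken with right and left lobes from 5 controls and 5 mutants. At E18.5 the right lobes were taken from 4 controls and 6 mutants, and tracheas likewise from 4 controls and 6 mutants.

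Mitochondrial DNA is a compact circle that is transcribed on both strands into long precursors, which are cut at the tRNAs that lie between most of the other genes. Its protein-coding genes give subunits of respiratory chain complexes I (mt-Nd genes), III (mt-Cytb) and IV (mt-Co genes) and of the ATP synthase (mt-Atp genes), while all other subunits, and the proteins that copy, transcribe and translate the circle, come from nuclear genes. Most of its messages gain short poly(A) tails, and its 2 ribosomal RNAs build the mitochondrial ribosome. Nuclear chromosomes hold pseudogenes copied from it.

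Sequence limited which mitochondrial messages could be measured. A read was counted only where it had 1 mapping place and touched 1 gene, and reads were 75 bases long. In GENCODE vM21 (GRCm38), a row of pseudogenes on chromosome 1 (chr1:24611535-24616197) holds stretches identical to the genes from the end of mt-Co1 to the first part of mt-Nd4. The start of mt-Co2 (chrM:7013-7087, plus strand), a subunit of complex IV, is shown with the start of its copy Gm28661 (chr1:24615491-24615565, minus strand), because the pair carries the finding. Capitals would mark differing bases, and there are none.
mt-Co2: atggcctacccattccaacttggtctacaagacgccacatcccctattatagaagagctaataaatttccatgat
Gm28661: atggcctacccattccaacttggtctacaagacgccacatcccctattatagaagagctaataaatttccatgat

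All 681 bases of Gm28661 matched mt-Co2. Counting every window of 75 bases, 99.5% of those in mt-Co2 also stood in a nuclear transcript, and mt-Co2 had 0 reads in all 30 libraries. The share was 99.5% for mt-Atp6 (copy Gm10925), 99.9% for mt-Co3 (Gm28437), 97.8% for mt-Nd3 (Gm28438) and 98.7% for mt-Nd4l (Gm10222). Of these genes, mt-Co3, mt-Nd3 and mt-Nd4l also had 0 reads in every library, and mt-Atp6 had 1 read in a single trachea. The copies collected few reads themselves: the highest count in any library was 2 for Gm28661, Gm10925 and Gm28437, 3 for Gm10222 and 232 for Gm28438. These genes are therefore unmeasured, and a count of 0 says nothing of their level.

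mt-Co1, the catalytic core subunit of complex IV, was partly shared. Its first 75 bases (chrM:5328-5402) differ from those of Gm13340 (chr2:22589573-22589647, minus strand), a copy 97.6% identical over 1545 bases, at the bases in capitals, so a read from there can be told apart.
mt-Co1, start: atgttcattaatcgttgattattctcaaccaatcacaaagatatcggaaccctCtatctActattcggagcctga
Gm13340, start: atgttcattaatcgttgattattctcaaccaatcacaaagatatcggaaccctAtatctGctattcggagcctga

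From base 1067 on, mt-Co1 (chrM:6394-6468) runs into the stretch held by Gm29216 (chr1:24616110-24616184, minus strand), shown with no capitals because no base differs.
mt-Co1, from base 1067: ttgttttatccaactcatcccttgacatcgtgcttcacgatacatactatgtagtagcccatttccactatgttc
Gm29216: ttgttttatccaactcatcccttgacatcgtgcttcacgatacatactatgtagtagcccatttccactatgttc

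In all, 39.8% of mt-Co1 windows were shared with a nuclear transcript, 61.5% of those in mt-Nd4 (Gm28439, bases 1 to 876 of the gene), 5.71% in mt-Nd2 and 1.66% in mt-Nd5. mt-Nd1, mt-Nd6, mt-Cytb, mt-Rnr1 and mt-Rnr2 shared none with an annotated nuclear transcript, and unannotated nuclear sequence was not searched. Levels of mt-Co1 and mt-Nd4 thus rest on part of each gene and are too low by an amount that the counts do not give.

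mt-Atp8, a small ATP synthase subunit, had 0 reads in every library although none of its 130 windows stood in an annotated nuclear transcript. Its neighbours' copies Gm28661 and Gm10925 leave a gap on chromosome 1 with no annotated transcript, and the sequence of that gap was not analysed here. It is shown whole (chrM:7766-7969), with the 43 bases that overlap mt-Atp6 in capitals, where reads touch 2 genes and are not counted.
mt-Atp8: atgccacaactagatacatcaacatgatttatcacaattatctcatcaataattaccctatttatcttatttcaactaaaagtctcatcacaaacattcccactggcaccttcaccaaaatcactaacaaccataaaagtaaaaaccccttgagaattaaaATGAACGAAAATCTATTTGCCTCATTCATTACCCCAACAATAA

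**Figure D1:**
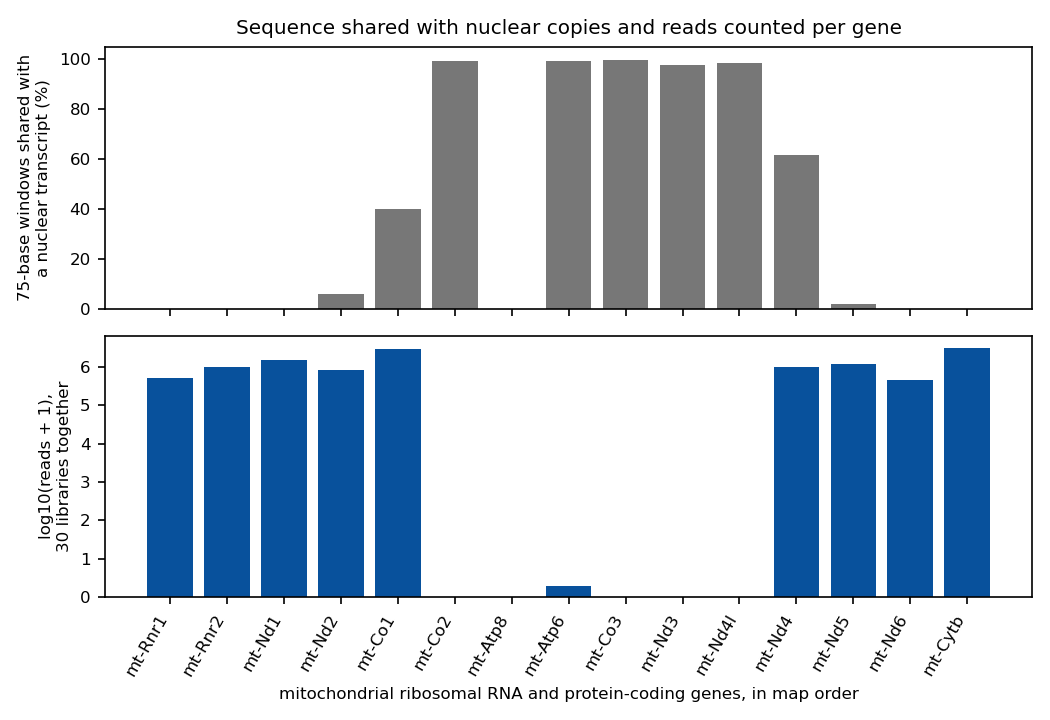
Percent of 75-base windows of each mitochondrial ribosomal RNA and protein-coding gene that also stand in a nuclear transcript (top), and log10 of the reads counted in all 30 libraries together plus 1 (bottom), in map order. The 6 genes from mt-Co2 to mt-Nd4l hold 0 or 1 read, and 5 of them share at least 97.8% of their windows.

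The tRNA genes were limited by length and by their neighbours. Of the 22, 21 are shorter than a read, and for 18 no full alignment of 75 bases can touch the gene without touching another. Those 18 had at most 31 reads each over all libraries (mt-Te). Of the 4 others, mt-Tp had 798 reads and mt-Tc had 3521, mt-Tn had 3 and mt-Tl1 had 0. Both measured tRNAs lie on the minus strand beside unannotated sequence: mt-Tc, the cysteine tRNA (chrM:5192-5257), next to the short gap between it and mt-Tn, and mt-Tp, the proline tRNA (chrM:15356-15422), next to the control region. Their sequences are given because each is shorter than a read, so a read aligned over its full length there also covers flanking bases; how much of each read was aligned was not analysed here.
mt-Tc: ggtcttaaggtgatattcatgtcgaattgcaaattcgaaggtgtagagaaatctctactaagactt
mt-Tp: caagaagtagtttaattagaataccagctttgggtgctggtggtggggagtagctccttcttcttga

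mt-Nd6, a complex I subunit, is the only protein-coding gene on the minus strand, and the library kit does not mark strand. Reads of mt-Nd6 and of RNA from the opposite strand therefore cannot be told apart. The last 40 bases of mt-Nd5 and of mt-Nd6 (chrM:13526-13565, plus strand, and chrM:13552-13591, minus strand) show in capitals the 14 bases in which the 2 genes overlap tail to tail.
mt-Nd5, end: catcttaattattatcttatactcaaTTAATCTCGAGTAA
mt-Nd6, end: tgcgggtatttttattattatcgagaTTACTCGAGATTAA

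Depth, as total counts per library, was 17.4 to 28.5 M for lungs at E13.5, 19.9 to 32.8 M for lungs at E18.5 and 11.7 to 30.5 M for tracheas. Levels below are counts per 1000000 (CPM) on library sizes scaled by TMM over all 30 libraries. Myocd was at 10.6 ± 3.21 CPM (SD, n = 5) in mutants and 13.02 ± 3.99 CPM (SD, n = 5) in controls at E13.5. At E18.5 it was at 7.23 ± 1.88 (n = 6) and 9.26 ± 2.52 CPM (n = 4) in mutant and control lung, and at 5.62 ± 1.995 (n = 6) and 4.77 ± 2.95 CPM (n = 4) in mutant and control trachea. The ranges of mutants and controls overlapped in all 3 settings. Which exons are deleted is not given in the labels, so these counts do not check the deletion. Nuclear ribosomal RNA, read from the gene CT010467.1, took 0.0220% to 0.126% of counts in the lungs but 0.812% to 2.65% in control tracheas and 0.757% to 14.5% in mutant tracheas. It exceeded 2% in trachea control 1 and in trachea mutants 2, 3, 4 and 5, and tests of mitochondrial genes that use tracheas are given with and without these libraries. Surfactant and other lung epithelium markers summed to 14469 ± 911 CPM (SD, n = 4) in E18.5 control lung and 2826 ± 311 CPM (SD, n = 4) in control trachea. Cartilage markers summed to 22.9 ± 3.81 CPM and 12123 ± 2385 CPM. Of the 6 lung epithelium markers edgeR had 4 lower and 2 higher in control trachea, against 24.6% and 24.5% of all genes. Sox9 stands in both lists.

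E13.5 lung held the largest share of reads on mitochondrial messages and E18.5 lung the smallest. In E13.5 controls 1 to 5, protein-coding mitochondrial genes took 2.14%, 2.39%, 2.18%, 2.57% and 2.45% of counted reads. In E18.5 lung controls 1 to 4 they took 0.840%, 1.02%, 0.864% and 0.793%, and in trachea controls 1 to 4 they took 1.34%, 1.62%, 1.38% and 1.35%. The 3 sets did not overlap, with means of 2.35 ± 0.182% (SD, n = 5), 0.881 ± 0.101% (SD, n = 4) and 1.42 ± 0.132% (SD, n = 4).

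Mutant lungs lay near their controls. E13.5 mutants 1 to 5 held 1.61%, 2.10%, 2.33%, 2.18% and 2.25%, so mutant 1 was the lowest of the 10 lungs of that stage and the other 4 lay within or just under the range of the controls. E18.5 mutant lungs ran from 0.879% to 0.989% with a median of 0.927%, inside the range of their controls. Mutant tracheas ran from 0.706% to 1.69% with a median of 1.05%, wider than any other group. Mutants 2, 3, 4 and 5, at 0.895%, 0.864%, 0.706% and 1.21%, lay below every control trachea, and mutant 6, at 1.69%, lay above them all.

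The 2 mitochondrial ribosomal RNA genes followed another order. They took 0.0427 ± 0.00857% (SD, n = 5) of reads in controls at E13.5, 0.0310 ± 0.00417% (SD, n = 4) in lungs at E18.5 and 0.344 ± 0.219% (SD, n = 4) in control trachea. Trachea controls 1 to 4 held 0.670%, 0.271%, 0.214% and 0.220%. Mutant tracheas 1 to 6 held 0.247%, 1.09%, 1.16%, 1.26%, 0.676% and 0.210%. The tracheas with the most mitochondrial ribosomal RNA were those with over 2% nuclear ribosomal RNA: control 1 and mutants 2, 3, 4 and 5. The part of residual ribosomal RNA in these values was not tested.

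**Figure D2:**
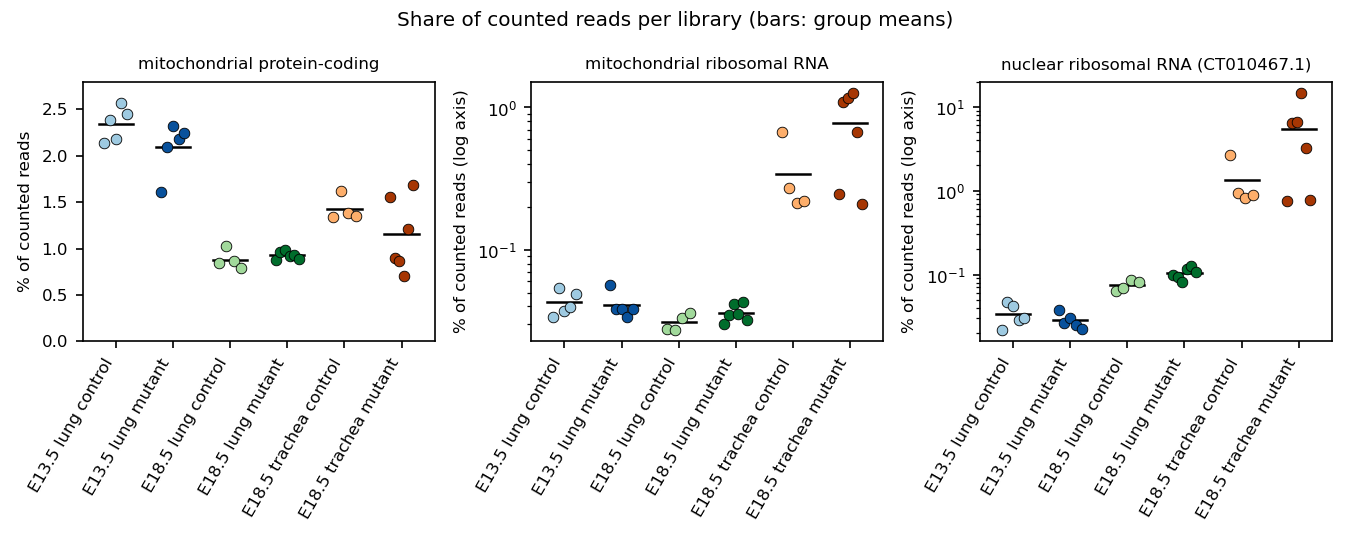
Percent of counted reads per library on mitochondrial protein-coding genes (linear axis), mitochondrial ribosomal RNA genes and the nuclear ribosomal RNA gene CT010467.1 (log axes); points are libraries in replicate order and bars are group means. Mitochondrial ribosomal RNA is high in the same tracheas as nuclear ribosomal RNA, at 0.670% to 1.26% against 0.210% to 0.271% in the others.

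Levels of different genes were compared per kilobase of gene length. In E13.5 control lung, mt-Cytb, the core subunit of complex III, was highest at 5532 ± 594 CPM per kb (SD, n = 5), followed by mt-Nd1 at 4144 ± 265 and mt-Co1 at 3326 ± 328. The other complex I genes followed: mt-Nd2 at 2101 ± 184, mt-Nd6 at 1850 ± 87.0, mt-Nd5 at 1542 ± 150 and mt-Nd4 at 1410 ± 112. The last 2 overlapped in range (1315 to 1688 and 1266 to 1546), and the others kept their order in each of the 5 libraries. mt-Rnr1 at 194 ± 35.6 and mt-Rnr2 at 151 ± 34.1 stood far below the messages in this polyadenylated RNA. The order changed when only windows not shared with a nuclear transcript were counted as length. Per 1000 such windows mt-Cytb had 5915 ± 635 CPM and mt-Co1 5806 ± 573 CPM (SD, n = 5), with either first depending on the library, and mt-Nd1 came after them at 4491 ± 287 CPM. mt-Nd4 moved from the low end to a place above mt-Nd2 and mt-Nd6, at 3870 ± 306 CPM.

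At E18.5 mt-Co1 stood above mt-Nd1 on both scales. In control lung mt-Cytb had 2076 ± 255 CPM per kb (SD, n = 4) and mt-Co1 had 1935 ± 179, with mt-Cytb first and mt-Co1 second in each of the 4 libraries, while mt-Nd1 followed at 957 ± 128. Per unshared window mt-Co1 was first in every E18.5 control lung and trachea. Per 1000 such windows mt-Co1 had 3379 ± 313 CPM and mt-Cytb 2219 ± 273 CPM in control lung (SD, n = 4). In control trachea the values per 1000 unshared windows were 4889 ± 224 CPM for mt-Co1 and 3903 ± 175 CPM for mt-Cytb (SD, n = 4).

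**Figure D3:**
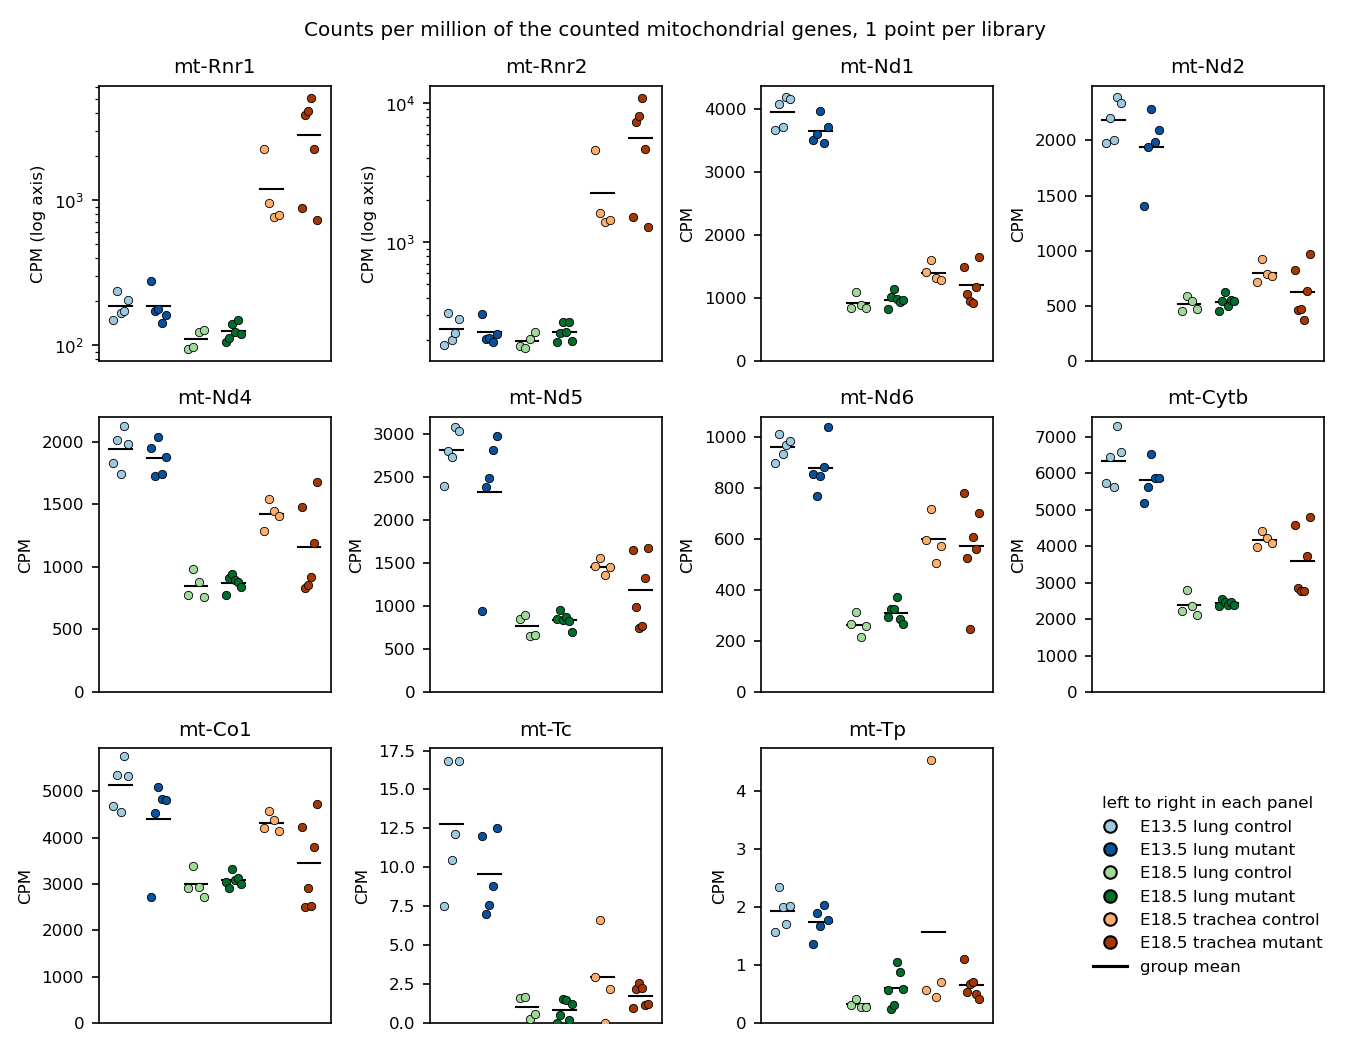
CPM of the 11 counted mitochondrial genes, 1 point per library and a bar at each group mean; axes are linear from 0 except for mt-Rnr1 and mt-Rnr2, which have log axes. The 7 messages are high in E13.5 lung, low in E18.5 lung and between them in control trachea, while both ribosomal RNAs are highest in trachea.

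No mitochondrial gene passed the test between mutants and controls in any tissue. At E13.5, 0 of the 11 were called by edgeR's quasi-likelihood test at an adjusted p under 0.05, against 0.206% of all genes tested. In E18.5 lung the count was 0 against 0.584%, and in the trachea 0 against 0.071%. DESeq2 also called 0 of the 11 in each. At an unadjusted p under 0.05 edgeR had 2 genes in lungs at E18.5, mt-Rnr2 and mt-Nd6, and 0 genes at E13.5 and in tracheas. With so few of all genes called, 0 of 11 is near the background.

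Among complex I genes in E13.5 lung, mt-Nd1 had 3668, 4079, 3717, 4202 and 4161 CPM in controls 1 to 5 and 3518, 3614, 3972, 3466 and 3713 CPM in mutants 1 to 5. The genotypes overlapped, and the log2 difference was -0.11 (SE 0.07, edgeR adjusted p = 0.998). The differences of mt-Nd2, mt-Nd4, mt-Nd5 and mt-Nd6 lay between -0.27 and -0.05 on the log2 scale. mt-Cytb differed by -0.12 (SE 0.08) and mt-Co1 by -0.22 (SE 0.15). All 7 messages thus had differences below 0, and mt-Rnr1 one of 0.01 (SE 0.17), none of them past the test. Mutant 1 set the size of several: without it mt-Nd5 differed by -0.07, mt-Co1 by -0.08, mt-Nd2 by -0.07 and mt-Cytb by -0.08, while mt-Rnr2 went from -0.08 to -0.22 and mt-Rnr1 turned to -0.18.

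E13.5 mutant 1 stood apart. It had 940 CPM of mt-Nd5, against 2389 to 2975 CPM in mutants 2 to 5, and 2721 CPM of mt-Co1, against 4539 to 5094 CPM. Its mt-Nd1, at 3518 CPM, lay within the range of the others. It also had the most mt-Rnr1 of the stage, at 277 CPM. Of 9 lists of nuclear genes of the same machinery, 8 had their highest sum among the mutants in this library. Complex IV subunits summed to 2061 CPM, against 1130 to 1318 CPM in the other mutants, and mitochondrial ribosomal proteins to 2137 CPM, against 1395 to 1524 CPM, while regulators of mitochondrial biogenesis were lowest there, at 691.8 CPM against 730.8 to 748.4 CPM. Red cell markers were also highest there, at 5664 CPM against 1813 to 4384 CPM in the other mutants. The part of this library's RNA quality was not tested.

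In E18.5 lung all 7 messages were a little higher in mutants, by 0.04 to 0.25 on the log2 scale. The largest was mt-Nd6, with 267, 315, 215 and 257 CPM in controls 1 to 4 and a lowest, median and highest value of 265, 309 and 372 CPM in mutants. The genotypes overlapped, and the log2 difference was 0.25 (SE 0.10, edgeR adjusted p = 0.460). mt-Cytb ran from 2117 to 2786 CPM in controls and from 2346 to 2557 CPM in mutants, a log2 difference of 0.04 (SE 0.07). mt-Rnr2, the large ribosomal RNA, differed by 0.23 (SE 0.10, edgeR adjusted p = 0.504).

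In the trachea the 2 ribosomal RNAs and the messages lay on opposite sides of 0. mt-Rnr2 had 4582, 1612, 1398 and 1449 CPM in controls 1 to 4 and 1509, 7362, 8004, 10776, 4660 and 1286 CPM in mutants 1 to 6. Its mutants span the controls, and the log2 difference was 1.34 (SE 0.70, edgeR adjusted p = 0.741). Without the 5 tracheas with over 2% nuclear ribosomal RNA the difference was -0.07 (edgeR adjusted p = 1, 3 controls and 2 mutants). For mt-Rnr1, the small ribosomal RNA, it was 1.26 (SE 0.64, edgeR adjusted p = 0.737) with all libraries and -0.04 without those 5.

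mt-Cytb had 3986, 4421, 4209 and 4088 CPM in trachea controls 1 to 4 and 4583, 2851, 2777, 2764, 3716 and 4801 CPM in mutants 1 to 6. Mutants 2 to 5 lay below every control and mutants 1 and 6 above them. The log2 difference was -0.20 (SE 0.17) with all libraries and 0.17 without the 5 tracheas. mt-Co1 differed by -0.31 (SE 0.18) and by 0.05 without them, and mt-Nd2 by -0.34 (SE 0.22) and by 0.14. All 7 messages had a negative difference with all libraries and a positive one without the 5, and no value of either fit passed the test. Cartilage markers summed to 5057, 3671, 2888, 4983, 10954 and 11453 CPM in mutants 1 to 6 and to 9081, 11364, 14066 and 13982 CPM in controls 1 to 4. They were thus below every control in mutants 1 to 4, of which mutant 1 is poor in nuclear ribosomal RNA, and within the range of the controls in mutants 5 and 6. The part of dissection or tissue makeup in the mitochondrial levels was not tested.

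The mutant effect did not differ detectably between settings. For E18.5 lung against E13.5 lung edgeR called 0 of the 11 (0.0268% of all genes), with 2 at an unadjusted p under 0.05 (mt-Nd6 and mt-Tp). For trachea against lung it called 0 of the 11 (0.0252% of all genes), with 1 at an unadjusted p under 0.05 (mt-Tp). DESeq2 called 0 of the 11 in both. Without the tracheas rich in nuclear ribosomal RNA edgeR also called 0 of the 11 for trachea against lung, with an adjusted p of 0.902 or more. Mean mt-Tp in controls and mutants was 1.92 and 1.75 CPM in E13.5 lung, 0.319 and 0.606 CPM in E18.5 lung, and 1.56 and 0.653 CPM in trachea. For mt-Tc the means were 12.75 and 9.58 CPM, 1.02 and 0.825 CPM, and 2.93 and 1.72 CPM in the same order.

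**Figure D4:**
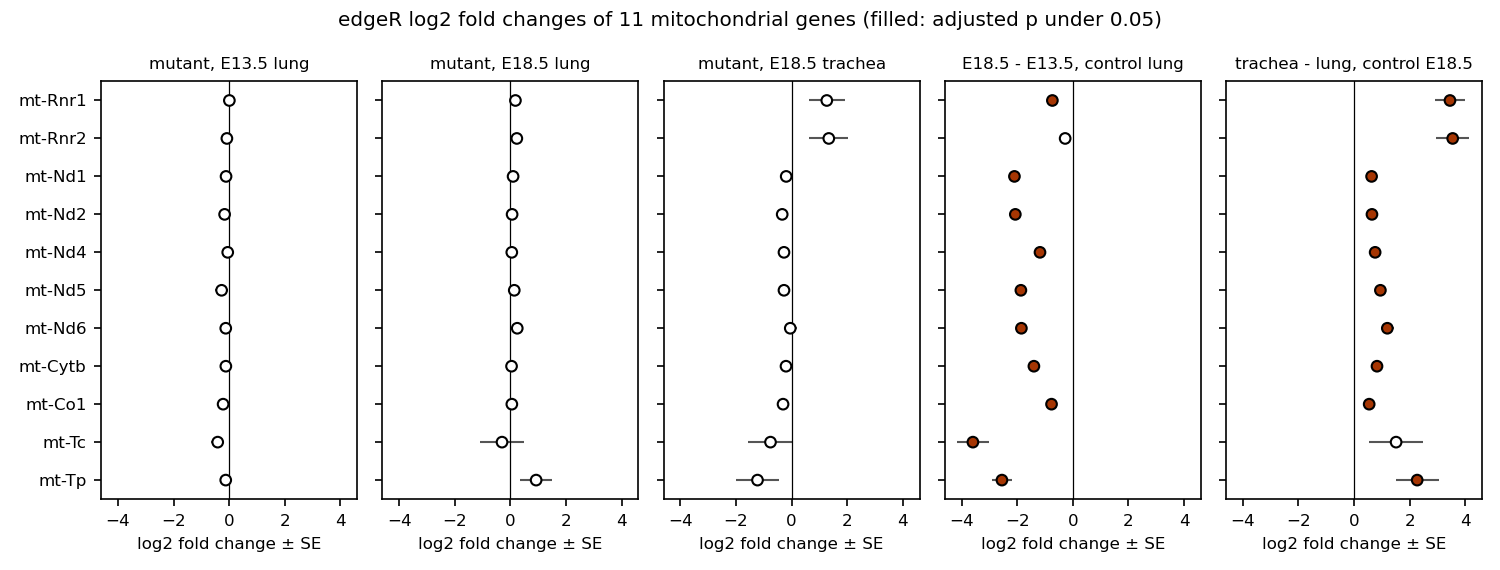
log2 fold change of each counted mitochondrial gene with its standard error from edgeR, for the mutant effect in 3 settings and for stage and tissue in controls; filled points have an adjusted p under 0.05. No point is filled in the 3 mutant panels, 10 of 11 are filled below 0 for stage and 10 of 11 above 0 for tissue.

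Most measured mitochondrial genes fell in lung from E13.5 to E18.5. In controls 10 of the 11 that passed the filter were lower at E18.5 by edgeR and 0 were higher, against 37.3% of all genes lower and 74.7% changed in either direction. Their median log2 difference was -1.85, beside -0.01 over all genes tested. In mutants 10 of the 11 were lower as well, against 38.4% of all genes lower and 75.7% changed. The stages were tabulated and dissected apart, with left and right lobes at E13.5 and right lobes at E18.5, so stage, lobe and library series cannot be told apart. In bulk tissue, fewer cells of a type and less RNA per cell cannot be told apart either.

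Among the complex I genes mt-Nd1, mt-Nd2, mt-Nd5 and mt-Nd6 fell by more than mt-Cytb of complex III, and mt-Nd4 by less. mt-Nd1 had 837, 1096, 891 and 840 CPM in E18.5 controls 1 to 4, beside 3668 to 4202 CPM in E13.5 controls, with no overlap. Its log2 difference was -2.10 (SE 0.10, edgeR adjusted p = 1.59e-15). mt-Nd2 had 1973, 2202, 2000, 2392 and 2337 CPM in E13.5 controls and 456, 588, 541 and 476 CPM in E18.5 controls. These sets are likewise apart, with a log2 difference of -2.07 (SE 0.12). mt-Nd5 fell by 1.87 (SE 0.21) and mt-Nd6 by 1.85 (SE 0.11). mt-Nd4 fell by 1.18 (SE 0.09), and part of its length was not countable.

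mt-Cytb of complex III had 5716, 6448, 5627, 7279 and 6573 CPM in E13.5 controls and 2232, 2786, 2364 and 2117 CPM in E18.5 controls. The stages did not overlap, and it fell by 1.40 on the log2 scale (SE 0.09, edgeR adjusted p = 9.48e-13). mt-Co1 of complex IV fell least of the messages, by 0.77 (SE 0.12, edgeR adjusted p = 6.51e-06). It had 4675, 5347, 4564, 5774 and 5332 CPM in E13.5 controls and 2910, 3379, 2946 and 2726 CPM in E18.5 controls, again apart. In mutants mt-Co1 fell by 0.50 (SE 0.11), with E13.5 mutant 1, at 2721 CPM, below the E18.5 mutants (2924 to 3333 CPM).

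Of the ribosomal RNAs 1 fell and 1 did not pass. mt-Rnr1 had 149, 234, 166, 173 and 205 CPM in E13.5 controls and 94.4, 96.6, 123 and 127 CPM in E18.5 controls, and fell by 0.73 (SE 0.16, edgeR adjusted p = 0.000307). mt-Rnr2 had 184, 308, 198, 223 and 282 CPM in E13.5 controls and 179, 173, 201 and 228 CPM in E18.5 controls. The stages overlapped, and its difference of -0.28 (SE 0.15, edgeR adjusted p = 0.103) did not pass. Without E13.5 control 1, the library with no transgenes, it was -0.36 and passed (edgeR adjusted p = 0.0372). In mutants mt-Rnr2 differed by 0.03 (SE 0.14).

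The RNA counted at the 2 tRNA genes had the largest differences of the 11 by size. mt-Tc had 7.54, 16.8, 10.5, 12.1 and 16.8 CPM in E13.5 controls and 1.63, 1.67, 0.240 and 0.557 CPM in E18.5 controls, a log2 difference of -3.59 (SE 0.57, edgeR adjusted p = 1.00e-05). mt-Tp had 1.56 to 2.34 CPM and 0.275 to 0.418 CPM, a difference of -2.55 (SE 0.36). Neither gene overlapped between stages. Few reads stand behind the E18.5 values, 7 to 56 per control lung for mt-Tc and 7 to 14 for mt-Tp.

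Between tissues at E18.5 most measured mitochondrial genes were higher in trachea. In controls 10 of the 11 that passed the filter were higher by edgeR and 0 were lower, against 24.5% of all genes higher and 49.1% changed. Their median log2 difference was 0.95, beside 0.01 over all genes tested. In mutants 7 of the 11 were higher, against 31.7% of all genes higher and 58.2% changed. Lung samples of the stage and tissue comparisons are the same libraries, so the 2 comparisons are not independent.

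mt-Cytb, at 3986 to 4421 CPM in control trachea and 2117 to 2786 CPM in control lung, was higher by 0.83 (SE 0.15, edgeR adjusted p = 4.92e-05), with no overlap. Among complex I genes, mt-Nd6 was higher by 1.197 (SE 0.23), with 597, 719, 507 and 573 CPM in trachea controls 1 to 4, and mt-Nd5 by 0.95 (SE 0.20), with 1467, 1561, 1363 and 1450 CPM. mt-Nd4 was higher by 0.76 (SE 0.17), mt-Nd2 by 0.64 (SE 0.21) and mt-Nd1 by 0.63 (SE 0.15). mt-Co1 had 4213, 4585, 4372 and 4137 CPM in control trachea, all above the control lungs, and was higher by 0.54 (SE 0.15, edgeR adjusted p = 0.00427). Each of the 7 messages was separated without overlap in controls. Without trachea control 1 and the mutant tracheas rich in nuclear ribosomal RNA, which share the fit, their differences in controls lay between 0.55 (mt-Co1) and 1.19 (mt-Nd6), and all 7 passed.

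The ribosomal RNAs showed the largest tissue difference. mt-Rnr1 had 2261, 955, 762 and 790 CPM in trachea controls 1 to 4, beside 94.4 to 127 CPM in control lungs, a log2 difference of 3.45 (SE 0.55, edgeR adjusted p = 5.37e-05). For mt-Rnr2 it was 3.55 (SE 0.60). No trachea overlapped any lung. Without trachea control 1, which has over 2% nuclear ribosomal RNA, the differences were 2.92 and 2.93 in that fit. CT010467.1 itself ran from 637 to 851 CPM in control lungs and from 8211 to 27067 CPM in control tracheas. The part of residual ribosomal RNA in this difference was not tested.

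Neither tRNA gene gave a firm tissue difference. mt-Tp was higher by 2.27 in controls (SE 0.77, edgeR adjusted p = 0.0168), but its 4 tracheas had 0.569, 4.52, 0.450 and 0.701 CPM. Without trachea control 2 the difference was 0.83 (edgeR adjusted p = 0.323), and with the replicate number as a block, which pairs lung and trachea, it was 1.59 (edgeR adjusted p = 0.140). mt-Tc differed by 1.51 (SE 0.97, edgeR adjusted p = 0.209). Without the tracheas rich in nuclear ribosomal RNA the differences were 2.52 for mt-Tp and 1.49 for mt-Tc.

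In mutants the tissue difference held for mt-Cytb at 0.63 (SE 0.12), mt-Nd6 at 0.94 (SE 0.18), mt-Nd5 at 0.58 (SE 0.17), mt-Nd4 at 0.48 (SE 0.14) and mt-Nd1 at 0.38 (SE 0.13), and for both ribosomal RNAs at 4.57 and 4.69. mt-Co1 at 0.23 (SE 0.12, edgeR adjusted p = 0.119) and mt-Nd2 at 0.29 (SE 0.17, edgeR adjusted p = 0.150) did not pass. Without the tracheas with over 2% nuclear ribosomal RNA both passed, at 0.54 (edgeR adjusted p = 1.28e-05) and 0.75 (edgeR adjusted p = 1.35e-05), and the mt-Rnr1 and mt-Rnr2 differences were 2.69 and 2.62. In that fit the other messages differed by 0.95 (mt-Cytb), 1.26 (mt-Nd6), 0.995 (mt-Nd5), 0.86 (mt-Nd4) and 0.70 (mt-Nd1), most of them over 1.5 times the value with all libraries. Leaving out mutant 4 alone was enough for both calls (0.29 for mt-Co1, 0.39 for mt-Nd2), and leaving out mutant 2 for mt-Co1 (0.29).

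The make-up of the counted messages differed between E13.5 and E18.5 libraries whatever their total. Here too stage, lobe and library series cannot be told apart. With 39.8% of mt-Co1 windows and 61.5% of mt-Nd4 windows shared with nuclear transcripts, their shares rest on part of each message. Of the reads on the 7 counted messages, mt-Co1 took 22.0 ± 0.401% (SD, n = 5) in controls at E13.5, 34.5 ± 0.590% (SD, n = 4) in control lungs at E18.5 and 30.5 ± 0.610% (SD, n = 4) in control trachea. mt-Nd1 took 17.03 ± 0.456%, 10.6 ± 0.371% and 9.90 ± 0.567%. mt-Cytb took 27.1 ± 0.659%, 27.4 ± 0.522% and 29.5 ± 0.577%, with overlap between the control lungs of both stages and every control trachea (28.8% and higher) above them. The E13.5 and E18.5 lungs of both genotypes did not overlap in mt-Co1 (16.4% to 22.4% against 31.6% to 35.5%) or in mt-Nd1 (16.1% to 21.3% against 9.55% to 11.8%).

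Ratios within a library showed the same break between E13.5 and E18.5 libraries, with the same limits. Reads on mt-Nd1 per read on mt-Co1 were 0.774 ± 0.0318 (SD, n = 5) in controls at E13.5, 0.306 ± 0.0153 (SD, n = 4) in control lungs at E18.5 and 0.325 ± 0.0219 (SD, n = 4) in control trachea. Among E13.5 mutants this ratio was 0.717 to 0.796 in mutants 2 to 5 and 1.29 in mutant 1. mt-Rnr1 and mt-Rnr2 lie on 1 precursor with the tRNA gene mt-Tv between them. In controls the ratio of mt-Rnr2 to mt-Rnr1 reads was 1.28 ± 0.0727 at E13.5 and 1.78 ± 0.105 in E18.5 lung. Control tracheas had 1.85 ± 0.139. The highest of these ratios were 2.15 in trachea mutant 4, 2.06 in trachea mutant 5 and 2.03 in trachea control 1, all rich in nuclear ribosomal RNA, and every E18.5 library lay above every E13.5 library (1.64 and higher against 1.38 and lower).

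**Figure D5:**
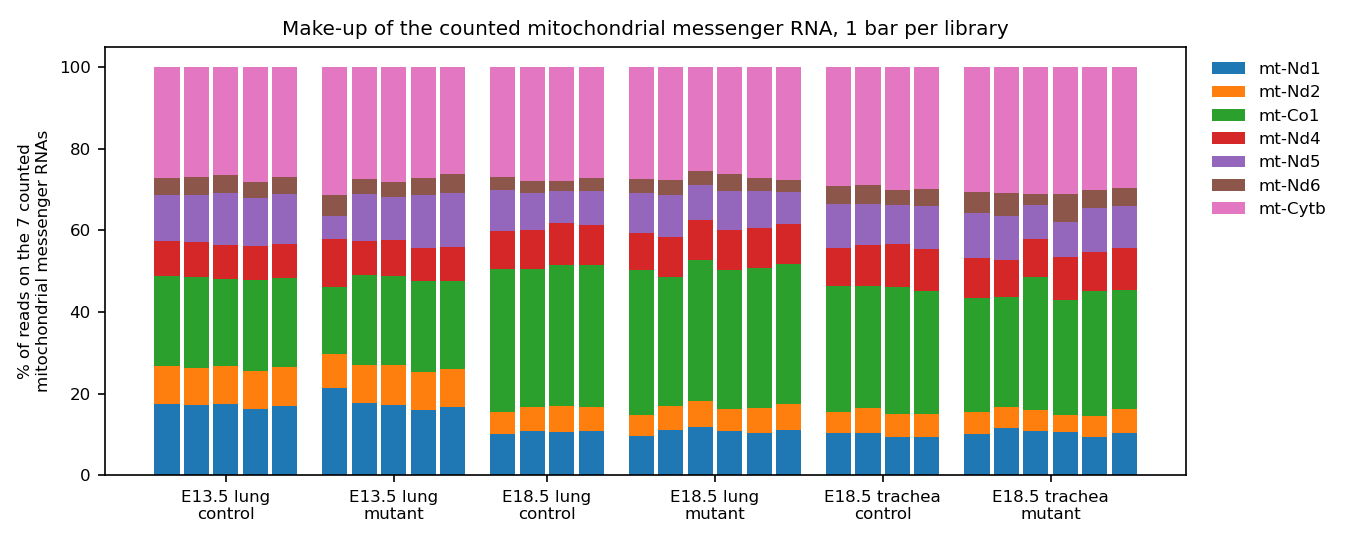
Percent of the reads on the 7 counted mitochondrial messages taken by each, 1 bar per library in replicate order within its group. mt-Co1 widens from 22.0% in E13.5 control lung to 34.5% in E18.5 control lung as mt-Nd1 narrows from 17.03% to 10.6%, and mutants show the same pattern.

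Nuclear genes of the same machinery were set beside them from lists drawn up with results of these data known. Between mutants and controls edgeR and DESeq2 each called 0 genes of the 9 lists, of 155 tested at E13.5, 157 in lungs at E18.5 and 157 in tracheas. Of all genes tested 0.206%, 0.584% and 0.071% were called. At an unadjusted p under 0.05 edgeR had 1, 12 and 17 of the listed genes, which is 0.645%, 7.64% and 10.8%, beside 3.57%, 9.41% and 6.75% of all genes. Atp5a1, the alpha subunit of the ATP synthase, had 1367 ± 45.4 CPM (SD, n = 5) in controls at E13.5 and differed by less than 0.01 in size (-8.69e-05, SE 0.06). In E18.5 lung, Uqcrc1 of complex III differed by 0.16 (SE 0.07, edgeR adjusted p = 0.450), and in the trachea Cox4i1 of complex IV by 0.27 (SE 0.20, edgeR adjusted p = 0.790).

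From E13.5 to E18.5 control lung most of these nuclear genes fell too. Of the 37 genes on the complex I list, which includes Ndufa4, 26 were lower and 2 higher, with a median log2 difference of -0.59. Ndufs1, a core subunit, had 131 ± 6.44 CPM (SD, n = 5) at E13.5 and 73.5 ± 4.14 CPM (SD, n = 4) at E18.5, a difference of -0.82 (SE 0.07), and Ndufa12 fell by 1.45 and Ndufa9 by 0.88. All 4 subunits of complex II, which has no mitochondrially encoded member, were lower, with Sdhc at -0.93, Sdha at -0.61 and Sdhb at -0.73. All 9 nuclear subunits of complex III were lower, with Uqcrc2 at -0.76, Cyc1 at -0.83 and Uqcrc1 at -0.66. These falls were smaller than that of mt-Cytb, at -1.40, although the difference between genes was not tested.

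Complex IV was mixed, with 9 of 15 nuclear subunits lower and 5 higher. Cox4i2, an isoform known from lung, had 6.75 ± 1.27 CPM (SD, n = 5) at E13.5 and 31.3 ± 1.77 CPM (SD, n = 4) at E18.5, and rose by 2.23 (SE 0.19), while Cox5a fell by 1.52 and Cox7c by 1.46. Of 16 ATP synthase subunits 13 were lower and 0 higher, with Atp5g1 at -1.56, Atp5a1 at -0.86 and Atp5g2 at -1.31. Atp5g1 encodes a c subunit of the membrane ring.

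The genes that transcribe and maintain mitochondrial DNA split, with 10 of 20 lower and 4 higher. Tfam, which packs the DNA and starts its transcription, had 88.2 ± 4.57 CPM (SD, n = 5) at E13.5 and 34.1 ± 3.57 CPM (SD, n = 4) at E18.5, a fall of 1.36 (SE 0.09). Polg, the catalytic subunit of the DNA polymerase, rose by 1.28 (SE 0.10), and Mgme1, an exonuclease of its replication, fell by 1.498. All 15 tested genes of mitochondrial RNA processing and stability were lower. Lrpprc, which holds mitochondrial messages stable, fell by 1.02 (SE 0.06), Pnpt1, an RNA-degrading nuclease, by 1.18 and Fastkd2 by 1.36. Of 30 mitochondrial ribosomal proteins 28 were lower and 0 higher, with Mrps2 at -1.33, Mrps5 at -1.17 and Mrpl19 at -1.57. Among 11 regulators of mitochondrial biogenesis 6 were lower and 4 higher: Pprc1 fell by 1.70 and Nrf1 by 0.69, and Nfe2l2 rose by 1.23. Each of these counts stands beside 37.3% of all genes lower and 37.4% higher.

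Between control trachea and lung fewer of the nuclear genes passed than between the stages. Of the 37 genes on the complex I list 12 were higher and 1 lower, with Ndufa1 at 1.46, Ndufc1 at 0.86 and Ndufb9 at 0.71. In complex IV 6 of 15 were higher and 2 lower, and Cox4i2 was lower, with a log2 difference of -2.92 (SE 0.29). Of 16 ATP synthase subunits 6 were higher and 0 lower, with Atp5g1 at 1.09. Complex III had 3 of 9 higher and 0 lower, with Uqcrc1 at 0.38, and complex II 1 of 4 higher, Sdhc at 0.29.

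Of 20 genes that copy and transcribe mitochondrial DNA 2 were higher and 4 lower, with a median log2 difference of -0.000773. Polg was lower in control trachea, with a difference of -1.48 (SE 0.10), and Twnk, the replicative helicase, with one of -0.57. Rexo2 and Fastk of the RNA processing list were higher, by 1.21 and 0.79, within 3 higher and 2 lower of 15. Of 30 mitochondrial ribosomal proteins 7 were higher and 1 lower, with Mrps6 at 1.21. Among the regulators 3 of 11 were higher and 6 lower, with Yy1 at -0.78 and Ppara at -2.35. The background for these counts is 24.5% of all genes higher and 24.6% lower. Without the tracheas over 2% nuclear ribosomal RNA 6 of 9 complex III subunits and 9 of 16 ATP synthase subunits were higher, and each other list gained at most 2 calls.

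Markers of several other cell types varied between the same groups. Cardiac muscle markers summed to 19.9 to 26.9 CPM in E13.5 control lung and 329 to 624 CPM in E18.5 control lung. Nppa, an atrial marker, was at 0 in every E18.5 lung. In control trachea cardiac muscle markers ran from 178 to 2061 CPM, highest in control 2. Skeletal muscle markers ran from 43.3 to 2790 CPM in control trachea against 12.8 to 40.2 CPM in control lung, and thyroid markers from 5.64 to 629 CPM against 1.83 to 2.68 CPM. Brown fat markers summed to 112.6 ± 9.77 CPM in control trachea and 62.2 ± 7.18 CPM in E18.5 control lung (SD, n = 4 each). Of the 5 tested, edgeR had 2 higher and 1 lower in control trachea, and Elovl3 was at 0 in every E18.5 lung. Red cell markers were at 1913 to 4869 CPM in E13.5 control lung, 4915 to 6549 CPM in E18.5 control lung and 374 to 751 CPM in control trachea. By edgeR 6 of 10 red cell markers rose and 3 fell between the stages in controls (median log2 difference 2.01). In control trachea 9 of 9 were lower than in lung (median -3.47). Of the cardiac muscle markers 9 of 9 rose between the stages, and 1 of 9 was higher and 0 lower in trachea. There 8 of 9 skeletal muscle and 4 of 5 thyroid markers were higher, and 0 lower. Over all genes 37.4% rose and 37.3% fell between the stages, and 24.5% were higher and 24.6% lower in trachea. The part of these cells in the stage and tissue differences was not tested.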

How the data were processed

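Each of the 3 deposited tables gives unnormalized counts for 10 libraries, made by the authors with featureCounts 1.6.2 at default options and GENCODE vM17, per the file headers, after STAR alignment to GRCm38, per the submitters' processing notes. No STAR version was found in those notes. At default options featureCounts leaves out reads with several mapping places or over 2 genes and ignores strand. Names, coordinates (the same for 37 of 37 genes) and sequences came from GENCODE vM21 transcripts.

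Counts were tested with edgeR 4.0.16 in R 4.3.3: TMM, filterByExpr, robust quasi-likelihood F test, two-sided, Benjamini-Hochberg adjustment over all genes tested, threshold 0.05. SE is the size of the log2 fold change divided by the square root of F. Genotype tests used 10 libraries each; stage and tissue tests were contrasts of 4 groups in 20 libraries. DESeq2 1.42.0 and the other alternatives are given at the end. Shares and levels carry no test. The procedure was also run on simulated counts. These gave every gene the same spread and held no outlying library, so they do not speak to the uneven tracheas.

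The members, lists and tests were chosen with earlier results of these data known. All measured members are named with values; of each nuclear list, up to 3 members with the smallest adjusted p, or an abundant member where none passed. The labels give each library as a single lung or trachea, and no 2 were copies (lowest chi-square per degree of freedom 4.11). Lung and trachea libraries of 1 number deviated together: r was 0.112 to 0.201 in 4 of 4 control pairs and 0.063 to 0.224 in 6 mutant pairs, of which 4 exceeded 0.1. Pairs of 1 number from different embryos also reached such values. Control lungs of the 2 stages had 0.077 to 0.154. Controls with mutants at E18.5 had 0.048 to 0.268 in lung and -0.282 to 0.295 in trachea. Mutant lungs of the 2 stages had -0.1 to 0.056, and E13.5 controls with mutants -0.239 to -0.037. In 10 of 10 pairs both libraries lay on the same side of 1000 counts of Xist, a marker of sex. The labels do not say that they share an embryo. The main tissue tests did not pair them, and the fit with the replicate number as a block is given at the end.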

Additional observations from a re-analysis of the deposited data

Results flagged for a closer look

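Of 90 sets of 4 to 6 libraries (a share or a level in 1 group), 10 had a library set apart from its group by Dixon's test; chance alone sets apart about 1 in 20, and the sets share libraries and reads.

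E13.5 lung mutant 1 accounted for 5 of them. Mitochondrial ribosomal RNA took 0.0569% of its reads, against 0.0335% to 0.0382% in the other mutants, with mt-Rnr1 at 277 CPM (others 142 to 176 CPM) and mt-Rnr2 at 307 CPM (others 191 to 218 CPM). mt-Co1 was at 2721 CPM (others 4539 to 5094 CPM) and mt-Nd5 at 940 CPM (others 2389 to 2975 CPM).

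Trachea control 1 was set apart 3 times, with mitochondrial ribosomal RNA at 0.670% of reads (others 0.214% to 0.271%), mt-Rnr1 at 2261 CPM (others 762 to 955 CPM) and mt-Rnr2 at 4582 CPM (others 1398 to 1612 CPM). Trachea control 2 was set apart for its mitochondrial protein-coding share, 1.62% (others 1.34% to 1.38%), and for mt-Tp at 4.52 CPM (others 0.450 to 0.701 CPM).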

How the results depend on the processing

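Each of the 37 calls of a single mitochondrial gene was repeated under the alternatives, giving 603 values: all 603 kept their direction and 601 stayed past the threshold. The 2 exceptions are mt-Tp between control trachea and lung, given in the report. With the replicate number as a block, edgeR called 0 members in the 3 genotype comparisons, 10 and 10 for stage in controls and mutants, and 9 and 7 for tissue; the block changed no other member's call. Leaving out each library in turn gave 0 members for every genotype comparison, 10 to 11 for stage in controls, 10 in mutants, 9 to 10 for tissue in controls and 7 to 9 in mutants. Without the 2 ribosomal RNA genes the mitochondrial share was 1.42% in control and 1.15% in mutant trachea, against 1.77% and 1.93% with them, so the order of the genotypes turned. Per 1000 unshared windows, a scale added after the data were seen, the E13.5 control levels were 4491 (mt-Nd1), 2399 (mt-Nd2), 5806 (mt-Co1), 3870 (mt-Nd4) and 2157 (mt-Nd6) CPM.

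Over all genes, edgeR called 34, 102 and 13 between genotypes in E13.5 lung, E18.5 lung and trachea, and DESeq2 called 82, 257 and 87. With the block the counts were 0, 73 and 28, without a filter 44, 192 and 22, and with nuclear ribosomal RNA as a covariate, added after the data were seen, 41, 4 and 3. Without the 5 tracheas rich in it the trachea count was 5. Leaving out 1 library gave 17 to 56, 26 to 205 and 3 to 16. For the differences of the mutant effect edgeR called 5 and 5, DESeq2 41 for stage and 64 for tissue, and leaving out 1 library gave 3 to 19 and 2 to 9. Without the 5 tracheas the tissue count was 11. The causes were not tested. Reads of mt-Tc and mt-Tp were few at E18.5, which limits both.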
